A study of Oryza sativa with 12 samples.

Results

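The comparison described here asks what azoxystrobin changed in the messenger RNA of rice leaves that were also given VdAL. It sets 3 libraries from leaves given VdAL and azoxystrobin together, called the combination, against 3 libraries from leaves given VdAL alone, and uses these 6 of the 12 libraries in the series. Both groups carry VdAL, so they differ by label only in azoxystrobin. The other 6 libraries are 3 from leaves given azoxystrobin alone and 3 from leaves given water, and they serve as a second pair that differs by azoxystrobin, without VdAL. All plants were 1-month-old TU100, an indica hybrid rice, and RNA was taken from leaves. Dose, time after treatment and the number of plants behind a library are not given in the labels. The growth description mentions 4 areas without tying them to treatments, so a difference between areas and a difference between treatments cannot be told apart if treatments were kept in different areas. The labels do not say whether replicate libraries come from separate plants, so a p-value here reflects only how far these libraries scatter, and that scatter may be technical.

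Azoxystrobin is a strobilurin fungicide. It binds complex III of the mitochondrial electron transport chain, the cytochrome bc1 complex, and stops electrons from passing from ubiquinol to cytochrome c. Plants have mitochondria with the same complex, and they also have an alternative oxidase that carries electrons from ubiquinol to oxygen without complex III, whose gene expression is known to respond when complex III is blocked. The labels name VdAL without expanding the name. The deposited files list genes by ID only. The reference table of rice genes at hand covers japonica rice only and held 0 of the 88438 IDs. Therefore no function is given here for any gene below, and the alternative oxidase genes could not be looked up. Nor could the leaf label be checked against leaf marker genes.

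Levels are in CPM, reads of a gene per 1000000 reads in the genes tested, with library sizes scaled by TMM, which uses a trimmed mean of log ratios between libraries. Fold changes are on the log2 scale, combination over VdAL. A gene is called changed where edgeR's quasi-likelihood test on the 6 libraries gave a Benjamini-Hochberg adjusted p under 0.05.

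The combination libraries held 7513929, 7301658 and 6444650 reads in genes, against 9840381, 7284593 and 9443340 in the VdAL libraries. Reads that did not align uniquely made up 12.6% to 13.0% of the reads recorded in the combination libraries and 15.3% to 22.4% in the VdAL libraries, with the highest value in VdAL replicate 1. Reads outside any gene made up 46.3% to 47.5% in the combination and 42.2% to 45.4% in VdAL. TMM factors over the 12 libraries were 0.927 to 0.989 in the combination and 0.995 to 1.05 in VdAL. The groups did not overlap in these last 3 measures. The share that did not align uniquely was tried as a covariate and other scaling factors were tried, with the counts given below, while the part of reads outside genes was not tested. Libraries correlated at 0.964 to 0.975 within the combination and 0.965 to 0.978 within VdAL (Pearson, log2 CPM of the tested genes). Between the groups the values were 0.951 to 0.972. In a principal component analysis of the 6 libraries the leading component, with 36.7% of the variance, placed combination replicates 1, 2 and 3 at 13.2, 43.0 and 28.1 and VdAL replicates 1, 2 and 3 at −20.3, −25.5 and −38.5. The groups did not overlap on it, and combination replicate 1 lay nearest to VdAL.

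Azoxystrobin on top of VdAL went with more genes called higher than called lower. Of 20292 genes tested, 386 were called, 1.9% of them, and 299 of these were higher in the combination (1.47% of those tested) while 87 were lower (0.429%). Higher genes were thus 77.5% of the calls. The median log2 fold change was 0.88 in the higher genes, with quartiles of 0.72 and 1.18 and a range from 0.51 to 4.25. It was −1.08 in the lower genes, with quartiles of −1.30 and −0.81 and a range from −3.48 to −0.50. Over all tested genes the median was −0.01. Estimates reached 2-fold or more in 106 higher and 49 lower genes, 0.764% of the tested genes together, and 4-fold or more in 19 higher and 5 lower genes. In all 386 called genes the 3 combination libraries lay on the same side of the 3 VdAL libraries. Among all tested genes, the combination libraries lay wholly above the VdAL libraries in 11.7% and wholly below in 9.89%. By estimate alone, 9833 tested genes were above 0 and 10459 below. At an unadjusted edgeR p under 0.05, 1981 genes were higher and 1318 lower.

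**Figure D1:**
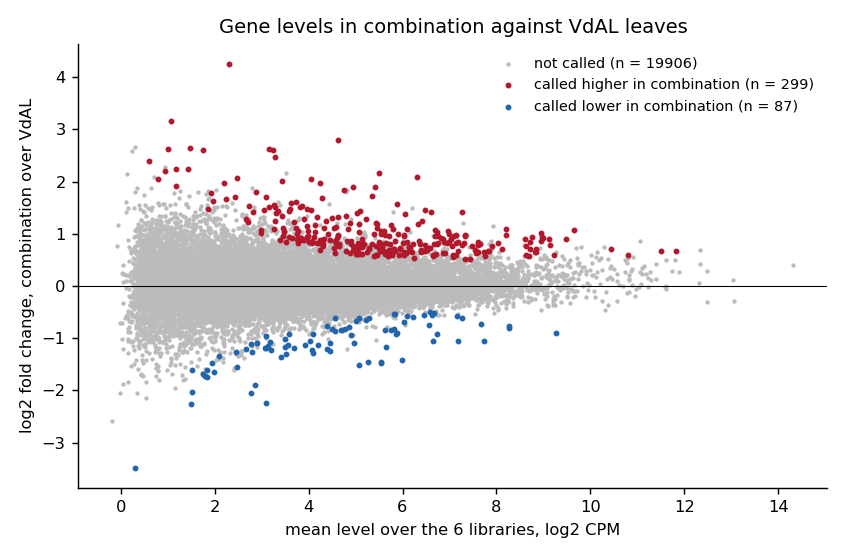
Each point is a gene, with its mean level over the 6 libraries on the x axis (log2 CPM) and its log2 fold change, combination over VdAL, on the y axis. The 299 genes called higher (red) reach 4.25 and the 87 called lower (blue) reach −3.48, around a median of −0.01 for all 20292 genes.

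The size of these groups of genes depended on which libraries were in the fit. The count of called genes was 11 without VdAL replicate 3, 9 without combination replicate 2, 37 without combination replicate 1, 127 without combination replicate 3 and 959 without VdAL replicate 1. When all 12 libraries shared an estimate of the spread, 4 genes were called, 0.0187% of the 21381 tested there, with 2735 genes at an unadjusted p under 0.05. The common biological coefficient of variation, the typical spread of a gene between replicates, was 16.2% in the 6 libraries and 18.8% in the 12. By group it was 14.5% in the combination, 17.6% in VdAL, 18.03% in azoxystrobin and 23.1% in water. Of the 386 genes, 6 were called in each of the 6 fits that left out a library. All 386 kept the sign of their change in those fits, which share most of their libraries with the main fit. With library sizes used without scaling factors, 220 genes were higher and 129 lower, so that 63.0% of the calls were higher.

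**Figure D2:**
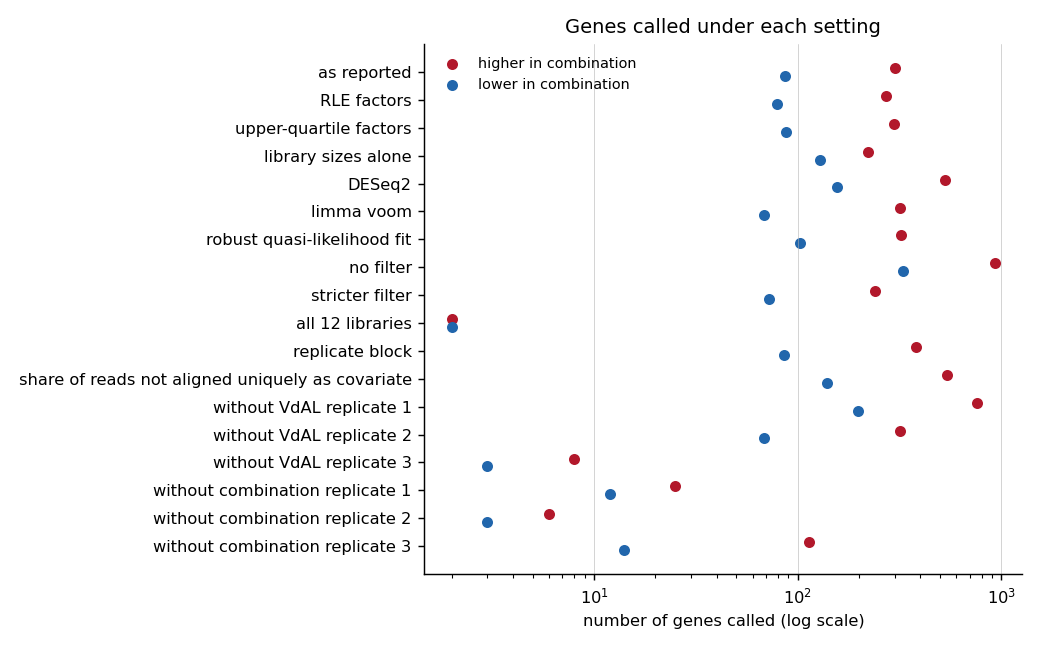
The x axis, on a log scale, gives the number of genes called higher (red) or lower (blue) in the combination than in VdAL, and each row is a setting of the analysis. The counts run from 2 higher and 2 lower genes with all 12 libraries in the fit to 932 higher and 330 lower genes without a filter on low counts.

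The genes called higher spanned mean levels from 0.414 to 2790 CPM in VdAL, with a median above that of all tested genes. Their median level was 54.2 CPM in the combination and 29.3 CPM in VdAL, whereas the median tested gene stood at 16.3 CPM in the combination and 16.1 CPM in VdAL. Summed over the 299 genes, the level was 40330, 52041 and 40844 CPM in combination replicates 1 to 3, against 27505, 26634 and 22473 CPM in VdAL replicates 1 to 3. These genes therefore held 3.97% to 4.81% of all reads in genes in the combination and 2.36% to 2.78% in VdAL. The genes called lower had a median of 16.4 CPM in the combination and 29.97 CPM in VdAL, and held 0.269% to 0.350% of the reads in genes in the combination and 0.532% to 0.658% in VdAL. The 299 and 87 genes were picked for these differences, so the sums describe their weight in the leaf transcriptome and test nothing.

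Calls became more frequent with level. Genes were split into 4 equal classes by their mean level over the 6 libraries. In the lowest class, up to 5.40 CPM, 0.651% of 5073 genes were called, 19 higher and 14 lower. In the class above it 1.64% were called, and in the next 1.97%. In the highest class, from 42.5 CPM, 3.35% were called, 143 higher and 27 lower. The median standard error (SE) of a log2 fold change was 0.41 in the lowest class and 0.13 in the highest. The called genes in the lowest class had median log2 fold changes of 2.21 (higher) and −1.66 (lower), against 0.77 and −0.76 in the highest class. The estimates were thus more precise, and the called changes smaller, in genes with more reads. A change of 2-fold or more in either direction lay outside the 95% interval for 72.6% of the tested genes.

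The IDs fall into 2 series by prefix. Among 19223 tested IDs starting with BGIOSGA, 294 were called higher and 83 lower, 1.96% together. Among 1069 tested IDs starting with EPlOING, 5 were called higher and 4 lower, 0.842% together. The EPlOING genes stood at a median of 3.92 CPM with a median SE of 0.36, and the BGIOSGA genes at 17.5 CPM with a median SE of 0.20. The median log2 fold change over all tested EPlOING genes was −0.15, against −0.01 for BGIOSGA genes. EPlOING genes took 1.28%, 1.23% and 1.21% of the reads in genes in combination replicates 1 to 3, and 1.32%, 1.35% and 1.35% in VdAL replicates 1 to 3. The difference of −0.0994 percentage points had an exact two-sided permutation p of 0.1, the smallest that 3 against 3 libraries allow (adjusted p 0.14 over 7 such shares and counts).

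At the low end, 36 IDs had reads in all 3 combination libraries and 0 reads in the 3 VdAL libraries, with at most 12 reads in a library. The reverse held for 204 IDs, with at most 15 reads in a library. None of these 240 IDs passed the filter on low counts, so they were not tested. The combination libraries had a read for 28106, 27191 and 26355 IDs, and the VdAL libraries for 28698, 28142 and 28799. VdAL replicates 1 and 3 also had the most reads in genes of the 6. An ID with 0 reads in a library may still be present at up to 3 counts, which covers counting error only.

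The gene with the smallest p among those that rose, BGIOSGA007859, stood at 103, 170 and 112 CPM in combination replicates 1 to 3, against 27.3, 35.6 and 27.3 CPM in VdAL replicates 1 to 3. Every combination library lay well above every VdAL library, and combination replicate 2 was the highest. The gene was 4.27-fold higher in the combination (log2 2.09, SE 0.19, 95% interval 1.69 to 2.50, edgeR adjusted p = 0.000824).

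BGIOSGA030982 had levels of 208, 268 and 193 CPM in the combination libraries and 79.9, 99.3 and 69.3 CPM in the VdAL libraries. The groups were again apart, with combination replicate 2 the highest. The log2 fold change was 1.42 (SE 0.16, 95% interval 1.08 to 1.77, edgeR adjusted p = 0.00296). It lost its call with all 12 libraries in the fit, where the edgeR adjusted p was 0.0637.

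Among genes that fell, BGIOSGA035790 stood at 43.0, 29.3 and 32.9 CPM in the combination libraries, against 93.2, 83.2 and 102 CPM in the VdAL libraries. All combination libraries were below all VdAL libraries, and combination replicate 1 was the highest of the combination. The gene fell by 1.41 on the log2 scale (SE 0.15, 95% interval −1.74 to −1.08, edgeR adjusted p = 0.00296). With all 12 libraries in the fit the edgeR adjusted p was 0.0637.

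BGIOSGA033925 was the least abundant of the 4 genes, at 3.24, 2.82 and 2.84 CPM in the combination and 12.2, 12.9 and 17.3 CPM in VdAL. These levels rest on 24, 19 and 18 reads in the combination libraries and 119, 98 and 171 reads in the VdAL libraries. The combination libraries lay close together and VdAL replicate 3 stood above its group. The gene fell by 2.25 on the log2 scale (SE 0.25, 95% interval −2.80 to −1.70, edgeR adjusted p = 0.00296). All 4 genes kept their call in each of the 6 fits that left out a combination or VdAL library. Of the 386 called genes 6 did so. The 4 were chosen by smallest p in these same libraries, which favours keeping the call.

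**Figure D3:**
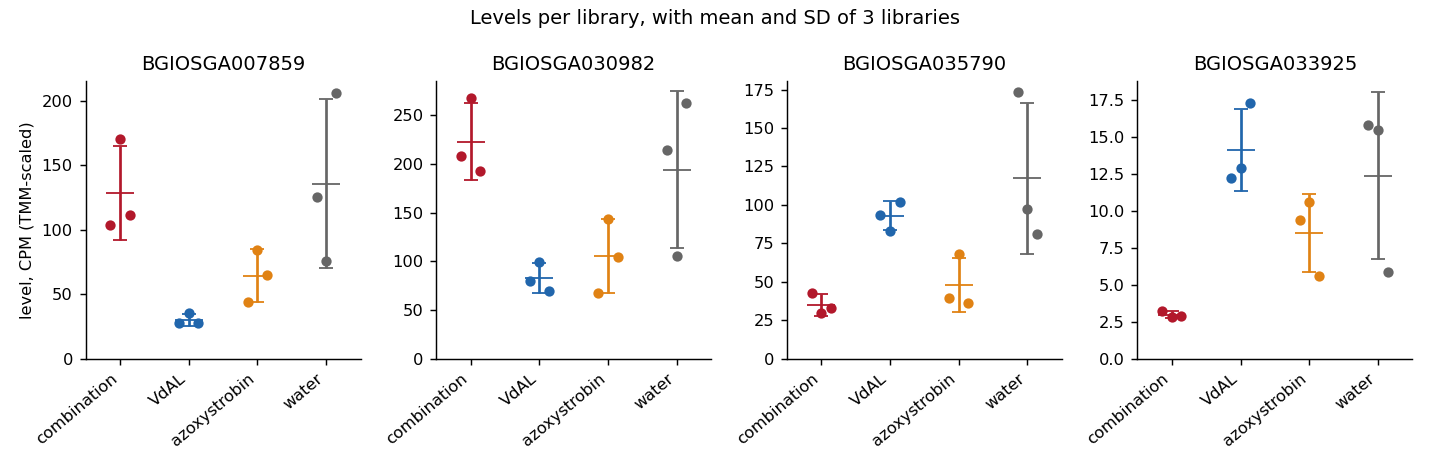
Levels in CPM (y axis, from 0) of the 4 genes in the 12 libraries, by treatment. Points are libraries, the wide mark is the mean and the bar is the SD of 3 libraries. In each panel the combination and VdAL libraries do not overlap, while the water libraries spread widely, from 76.0 to 206 CPM for BGIOSGA007859.

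The leaves without VdAL were then set beside these genes, since they were not used to choose them. In BGIOSGA007859 azoxystrobin alone gave 43.6, 84.5 and 65.1 CPM and water 125, 76.0 and 206 CPM, a log2 fold change, azoxystrobin over water, of −1.07 (95% interval −1.77 to −0.38, edgeR adjusted p = 0.128, not called). BGIOSGA030982 stood at 67.8, 144 and 104 CPM in azoxystrobin and 215, 105 and 262 CPM in water (log2 −0.88, 95% interval −1.56 to −0.20, edgeR adjusted p = 0.208). The groups overlapped for both genes, through water replicate 2.

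The genes that fell with VdAL present were looked at in the same way. BGIOSGA035790 stood at 39.5, 68.2 and 36.0 CPM in azoxystrobin, all below the 173, 97.6 and 80.8 CPM in water (log2 −1.29, 95% interval −1.93 to −0.65, edgeR adjusted p = 0.0535). Its estimate was thus below 0 both with and without VdAL. BGIOSGA033925 stood at 9.38, 10.6 and 5.56 CPM in azoxystrobin and 15.8, 15.5 and 5.88 CPM in water, where the groups overlapped through water replicate 3 (log2 −0.55, 95% interval −1.36 to 0.26, edgeR adjusted p = 0.542). The difference between the effects with and without VdAL was tested on all 12 libraries, where edgeR called it in 3.8% of 21381 genes. It was called for BGIOSGA007859 and BGIOSGA030982 and not for BGIOSGA035790 and BGIOSGA033925, but all 4 were chosen on the effect with VdAL, which is part of that difference.

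The same comparison was made for the whole lists. Azoxystrobin against water shares no library with combination against VdAL, and its edgeR fit on its own 6 libraries called 340 of 20395 genes (1.67%), 296 lower (1.45%) and 44 higher (0.216%). Calls in these 2 fits were mostly lower without VdAL, where they were mostly higher with it. How the 340 calls depend on single libraries is not given here, and water had the widest spread between replicates, 23.1%. Of the 299 genes called higher with VdAL, 297 were tested without it, and azoxystrobin was below water in 270 of them, or 90.9%. With water replicate 3 left out this held for 207 of 297, or 69.7%. The median log2 fold change of the 297 genes, with all libraries, was 0.88 with VdAL, against −0.51 without it. Among the genes not called with VdAL but estimated above 0 there, 59.6% were below 0 without VdAL, with a median of −0.09. The 87 genes called lower with VdAL were not mirrored in this way. Without VdAL 64 of them were also below 0 and 23, or 26.4%, were above it, with a median of −0.18. Among the genes not called with VdAL but estimated below 0 there, 56.3% were above 0 without VdAL. The share of 26.4% became 42.5% of the same 87 genes without water replicate 2. In lists called anew it was 41.6% of 197 genes without VdAL replicate 1 and 43.4% of 129 with library sizes alone. It was 16.7% with combination replicate 1 left out, 7.14% with combination replicate 3 left out, and 0 without VdAL replicate 3 or combination replicate 2, where 3 to 14 genes were called lower.

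The calls themselves overlapped in 39 genes that were higher with VdAL and lower without it, 13.0% of the 299 and 13.2% of the 296. There were 4 genes lower in both, 4.60% of the 87 and 1.35% of the 296. None was called higher in both, and none was lower with VdAL and higher without it. Among all genes tested without VdAL, 1.45% were called lower and 0.216% higher there. With VdAL 1.46% of them were called higher and 0.427% lower. Of the 296 genes lower in azoxystrobin than in water, 293 could be tested with VdAL, and 244 of these, or 83.3%, were above 0 there, against 48.2% of all genes tested on both backgrounds. Their median log2 fold change was 0.50 with VdAL, against −1.27 without it, a value that their choice fixes. For the 44 genes higher in azoxystrobin the median was −0.04 with VdAL and 0.73 without it.

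**Figure D4:**
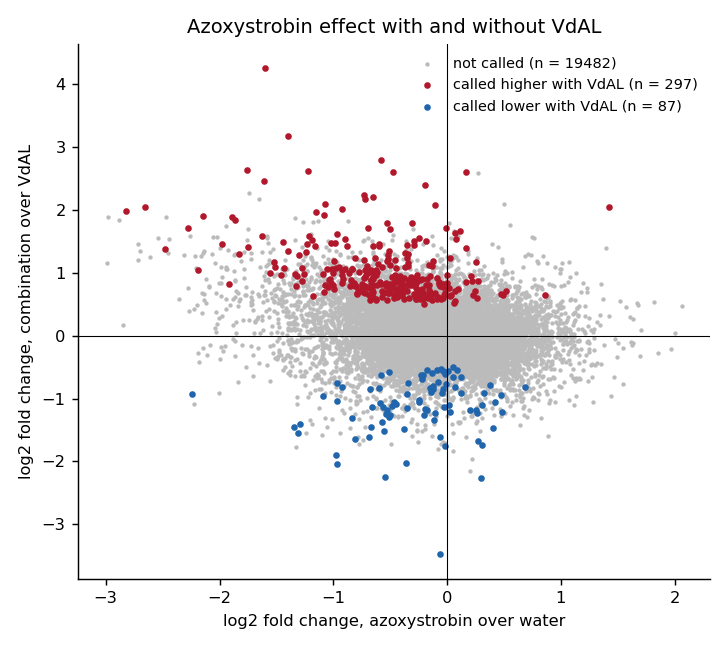
Each point is 1 of 19866 genes tested on both backgrounds, with the log2 fold change of azoxystrobin over water on the x axis and of the combination over VdAL on the y axis. Of the genes called higher with VdAL (red), 270 of 297 lie left of 0, and of those called lower (blue) 64 of 87 do.

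Across the 19866 genes tested on both backgrounds, which are not independent replicates, the 2 sets of fold changes had a Pearson correlation of −0.257 and a Spearman correlation of −0.219. Among genes above the median level the Pearson value was −0.390 and among the others −0.206. These relations leaned on water replicate 3. Without it the Pearson correlation was −0.0796 and the share of the 297 genes below 0 without VdAL was 69.7%. Leaving out any other library gave correlations from −0.334 to −0.172. Water replicate 3 had the lowest share of reads not aligned uniquely in the series, 9.01%, and the part of that in these relations was not tested.

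The levels of the called genes in each library show where the groups stood. Relative to their mean in VdAL, the 299 higher genes had median log2 levels of 0.80, 1.09 and 0.79 in combination replicates 1 to 3, which the choice of the genes fixes. In azoxystrobin replicates 1 to 3 the medians were −0.04, 0.43 and 0.14, against −0.18 to 0.11 in the VdAL libraries. Azoxystrobin replicate 2 thus stood about midway between VdAL and the combination, and the other two nearer to VdAL. In water replicates 1 to 3 they were 0.72, 0.20 and 1.11, so that water replicates 1 and 3 stood near the combination and water replicate 2 nearer to VdAL and azoxystrobin. Over all tested genes the same medians ran from 0.0008 to 0.027.

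Gene by gene, the mean level in azoxystrobin lay on the combination's side of the midpoint between the combination and VdAL in 34 of the 299 genes (11.4%), while the mean in water did so in 201 (67.2%). Over all tested genes these shares were 38.0% for azoxystrobin and 50.8% for water. There the median absolute log2 fold change was 0.21, near the median SE of 0.20. The called genes were picked for a wide gap, which by itself lowers the share for a group near VdAL. The shares of called and of all tested genes therefore cannot be compared directly. Without water replicate 3 the share for water was 48.5%, and without water replicate 2 it was 87.3%. In lists called anew the share for water was 76.8% of 762 genes without VdAL replicate 1 and 73.4% of 316 without VdAL replicate 2. It was 83.3% of 6 genes without combination replicate 2. The share for azoxystrobin was 24.7% of the 299 without azoxystrobin replicate 1. Without VdAL replicate 1, where 762 genes were called higher, it was 18.4%. In fits with 6 to 25 genes called higher it was 33.3% (combination replicate 2 left out), 4% (combination replicate 1 left out) and 0 (VdAL replicate 3 left out). The median of the 299 genes was 0.16 log2 units above VdAL in azoxystrobin and 0.66 above VdAL in water.

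The 87 lower genes were arranged otherwise. Their median log2 levels relative to the VdAL mean were −0.85, −1.08 and −1.05 in combination replicates 1 to 3, which the choice of the genes fixes. Azoxystrobin replicates 1 to 3 stood at −0.13, −0.26 and −0.63, and water replicates 1 to 3 at −0.09, 0.13 and −0.27. The water libraries lay around the VdAL mean, and azoxystrobin replicate 3 was the lowest of these 6. Azoxystrobin lay on the combination's side of the midpoint in 22 of the 87 genes (25.3%), against 38.0% of all tested genes. Water did so in 8 (9.20%), against 50.8% of all tested genes. As with the higher genes, choosing for a wide gap lowers the share of a group near VdAL, so the shares cannot be compared directly. The share for water was 16.1% of the 87 without water replicate 2. In lists called anew it was 25.4% of 197 genes without VdAL replicate 1 and 23.5% of 68 without VdAL replicate 2. With library sizes alone it was 16.3% of 129. The share for azoxystrobin was 36.8% of the 68 genes without VdAL replicate 2. Without VdAL replicate 3 or combination replicate 1 or 2, where 3 to 12 genes were called lower, the share for water was 0, and that for azoxystrobin, in the same order, 66.7%, 8.33% and 33.3%.

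**Figure D5:**
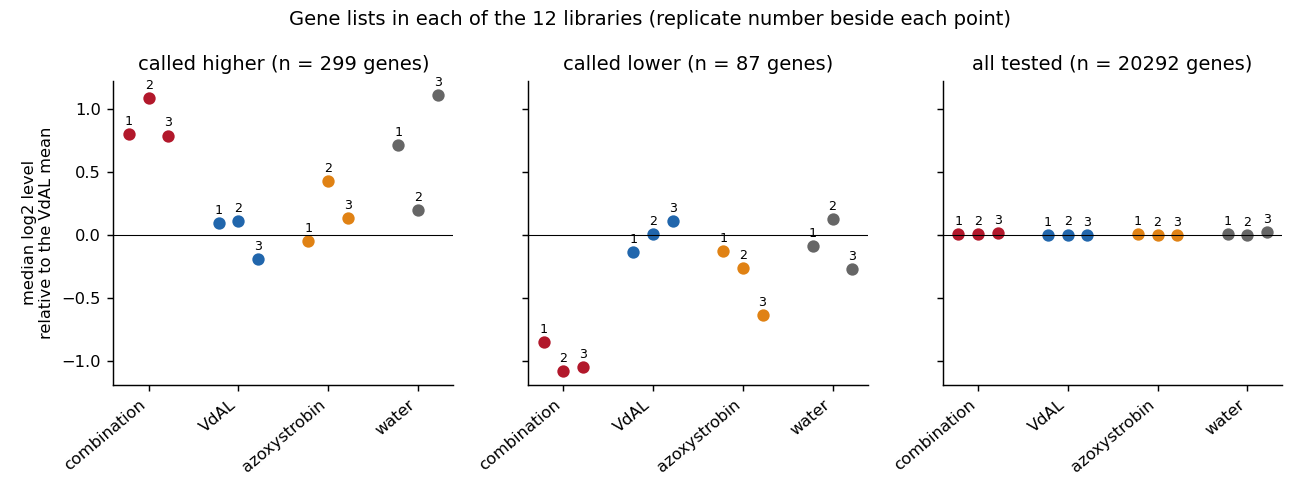
Each point is a library, with the median over the listed genes of the log2 level relative to the mean of the 3 VdAL libraries on the y axis, and its replicate number beside it. For the genes called higher, the azoxystrobin libraries stand between −0.04 and 0.43, and water replicates 1 and 3 at 0.72 and 1.11, near the combination. The combination values, −1.08 to −0.85 for the genes called lower, are fixed by the choice of the genes.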

How the data were processed

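The authors deposited 1 table per library with a raw read count for each of 88438 gene IDs and, at its end, totals of reads that no gene received. Those totals entered neither library sizes nor tests. The submitters' processing notes name TopHat2 2.1.0, HTSeq 0.6.1 and edgeR 3.16.3, without settings, and a pig genome build, although 0 IDs carry the pig prefix ENSSSC. For counting mode, strand setting and annotation the entry is not given in the sources used here. Hence overlapping or antisense genes, and near-identical copies, may not be told apart.

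The counts of the combination and VdAL libraries went into edgeR 4.0.16 (R 4.3.3). Low IDs were removed by filterByExpr with a minimum count of 10, and the rest scaled by TMM, and tested with glmQLFit and glmQLFTest, two-sided, on the 6 libraries with 4 residual degrees of freedom. P-values were adjusted by Benjamini and Hochberg over all tested IDs. Azoxystrobin against water was fitted in the same way on its own 6 libraries, and the interaction on all 12. The SE was the log2 fold change divided by the square root of F. CPM values used TMM factors over the 12 libraries, and log2 CPM a prior count of 2. Because no ID matched any of 39387 genes in the reference table, the IDs named are the 2 higher and 2 lower ones of smallest p, and the pathway and marker lists had 0 members. The genes, lists and comparisons were chosen with earlier results of these data known. The procedure was run on counts simulated as independent libraries from the means and spread fitted to these 6 libraries. That run cannot speak to how the calls depend on single libraries. Pairs of libraries within a group differed by more than sampling noise, with a chi-square per degree of freedom of at least 4.16. Alternatives were RLE and upper-quartile factors, library sizes alone, DESeq2 1.42.0, voom in limma 3.58.1, a robust fit, no filter, a minimum count of 30, all 12 libraries, a replicate block, a covariate and leaving out each library.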

Additional observations from a re-analysis of the deposited data

Results flagged for a closer look

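The effect of azoxystrobin was called different between leaves with and without VdAL for 2 of the 4 named genes. In edgeR's interaction test on all 12 libraries, the log2 effect with VdAL minus that without was 3.17 for BGIOSGA007859 (SE 0.42, adjusted p = 0.000995) and 2.31 for BGIOSGA030982 (SE 0.40, adjusted p = 0.00364). For BGIOSGA035790 it was −0.11 (SE 0.37, adjusted p = 0.907) and for BGIOSGA033925 −1.69 (SE 0.48, adjusted p = 0.0618). In this test 3.8% of all tested genes were called. The genes were chosen for a large change with VdAL, which is part of the interaction and favours a large value of it. The effect without VdAL, the other part, was called for neither BGIOSGA007859 nor BGIOSGA030982 (edgeR adjusted p = 0.128 and 0.208).

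Outside the gene counts, the share of reads that fell outside any gene was 46.9% ± 0.599 in the combination and 44.2% ± 1.77 in VdAL (SD, n = 3 libraries each), and all combination libraries lay above all VdAL libraries. The exact two-sided permutation p was 0.1, the smallest this design allows, and 0.14 after adjustment over 7 shares and counts. Whether this share has a part in the gene differences was not tested.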

How the results depend on the processing

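Against 386 called genes (299 higher, 87 lower), DESeq2 called 685 (529 higher, 156 lower), the fit without a filter 1262 (932 and 330), the fit with the percentage of non-unique alignments as covariate 682 (543 and 139), and the fit on all 12 libraries 4 (2 and 2). Leaving out 1 library gave 9 to 959 genes, with 6 to 762 higher and 3 to 197 lower. The cause was not tested. Other scaling factors, voom, the robust fit and the stricter filter gave 311 to 425. Of the 386 genes, 185 were called with the covariate. The covariate did not overlap between the groups, so that fit cannot fully separate it from treatment. The replicate block gave 467 genes (381 higher, 86 lower). The replicate numbers are not stated to pair libraries, so they were not taken as pairs. Same-numbered combination and VdAL libraries had deviations correlated at −0.0785, 0.113 and 0.00386. Of the 3 combination libraries, 1 correlated best with its own number. With 3 libraries in a group these values cannot decide whether libraries were paired. The 4 named genes kept their call in all alternatives except BGIOSGA030982 and BGIOSGA035790 with all 12 libraries. Their choice by smallest p favours this. The 95% interval had a median of 0.43 log2 units to either side, and the called change nearest to 0 was −0.50.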
